A study of Arabidopsis thaliana with 10 samples.

Results

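GID1A, GID1B and GID1C are the gibberellin receptors of Arabidopsis thaliana. They are 3 of the 13349 genes that a probe set naming a single gene represented on the arrays, and each was chosen by its symbol and read by 1 probe set: GID1A is locus AT3G05120, GID1B is AT3G63010 and GID1C is AT5G27320. The study followed gene expression in the pistil after pollination, in plants of ecotype Columbia. Flowers were emasculated 24 h before pollination, and the 5 groups were unpollinated pistils, pollinated pistils taken 0.5 h, 3.5 h or 8 h after pollination (written 0.5 HAP, 3.5 HAP and 8 HAP), and unfertilized ovules dissected out of unpollinated pistils, with 2 arrays in each group. Each pistil replicate pooled 20 pistils from at least 10 plants, and each ovule replicate pooled about 1500 ovules from 50 pistils of about 30 plants. Pistils are mixed tissue and from 0.5 HAP on also hold pollen and pollen tubes. In these samples fewer cells of a type and less RNA per cell therefore cannot be told apart. All times were compared with the same unpollinated group, so hours since emasculation and hours since pollination cannot be told apart either.

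Gibberellins are diterpenoid hormones that promote germination, stem growth, flower development and fruit growth. A GID1 receptor is a soluble protein of the nucleus and cytoplasm that closes over bioactive gibberellin and then binds a DELLA protein, a repressor of growth. The complex is recognised by the F-box protein SLY1, which marks the DELLA protein for destruction by the proteasome, so that genes held back by DELLA proteins are released. Receptor transcripts are themselves part of a feedback loop in Arabidopsis seedlings: they are higher where gibberellin is scarce and lower where it is plentiful. In Arabidopsis flowers, fertilization is followed by gibberellin synthesis in the ovules, and fruit growth depends on it.

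Receptor intensities were read on the linear scale of the deposited table, and fold changes were fitted on log2(intensity + 16). Levels were compared between samples within a probe set, never between probe sets. The median intensity of an array lay between 251.5 and 272.2, and replicate arrays correlated at Pearson's r from 0.9907 in unpollinated pistils to 0.9972 (log2 scale, across probe sets). Replicate 2 of the unpollinated pistils had the highest 3' to 5' ratio of actin probe sets, 2.96 on the log2 scale against 1.93 to 2.55 on the other 9 arrays. The background level, the 95th percentile of 27 control probe sets for Bacillus genes, was 136.5.

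GID1A had intensities of 971.1 and 874.2 (unpollinated pistils), 861.7 and 863.5 (0.5 HAP), 662.8 and 761.7 (3.5 HAP), 413.6 and 434.3 (8 HAP) and 1445 and 1465 (ovules). All of these lay well above the background level. The ovule arrays were the highest and the 8 HAP arrays the lowest. The 3.5 HAP arrays lay below both earlier groups, while the 0.5 HAP arrays lay just under the unpollinated ones.

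GID1B had intensities of 279.9 and 273.5 (unpollinated pistils), 280.8 and 286.4 (0.5 HAP), 273.0 and 322.4 (3.5 HAP), 158.9 and 168.2 (8 HAP) and 309.8 and 436.3 (ovules). The first 3 pistil groups lay close together and the 8 HAP arrays lay below all others, nearer to the background level. The 2 ovule arrays were far apart from each other, and the lower one fell between the 2 arrays of 3.5 HAP.

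GID1C had intensities of 124.2 and 141.6 (unpollinated pistils), 132.1 and 125.1 (0.5 HAP), 150.7 and 155.8 (3.5 HAP), 109.4 and 114.9 (8 HAP) and 103.5 and 98.73 (ovules). Only both 3.5 HAP arrays and replicate 2 of the unpollinated pistils exceeded the background level. Differences of GID1C are therefore differences close to background, and the log2(intensity + 16) scale understates their size.

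**Figure D1:**
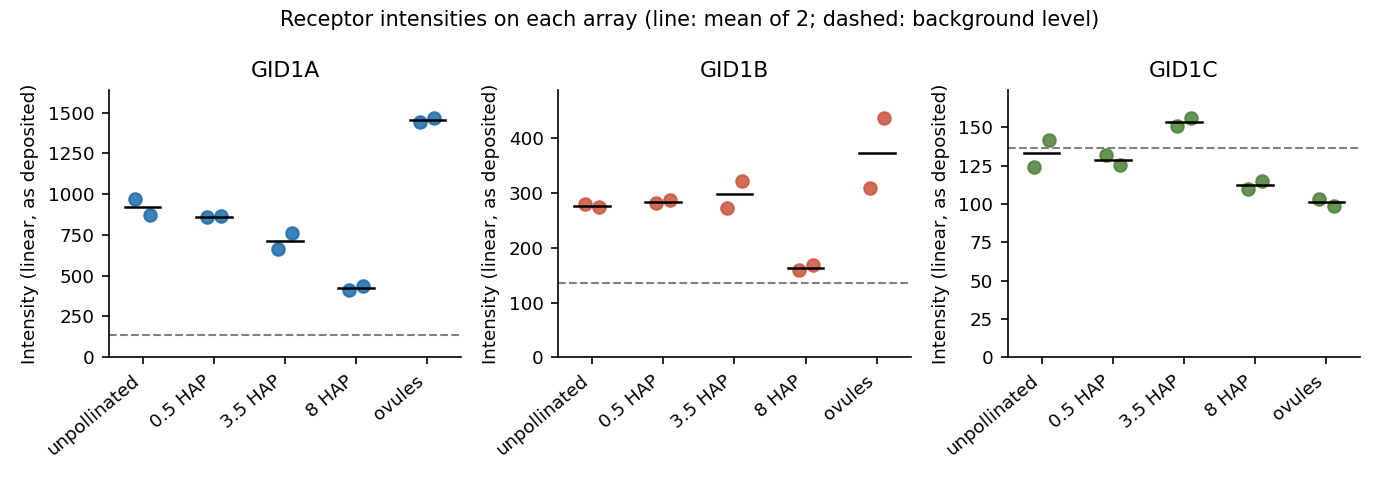
Intensity of GID1A, GID1B and GID1C on each of the 10 arrays (linear scale, a panel for each receptor with its own axis from 0), by group; points are arrays, short lines the mean of the 2 arrays of a group and the dashed line the background level of 136.5. GID1A descends from 922.7 to 423.9 over the pistil groups, GID1B drops between 3.5 HAP and 8 HAP, and GID1C lies about the background level.

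The main question of the time course was how the pistil changed between pollination and 8 HAP, when pollen tubes have grown towards the ovules. At 8 HAP GID1A was 2.13-fold lower than in unpollinated pistils, with a mean of 423.9 ± 14.7 (SD, n = 2) against 922.7 ± 68.5 (log2 difference -1.09, 95% confidence interval -1.29 to -0.89, adjusted p = 4.97e-06 in limma). GID1B was 1.63-fold lower, with 163.5 ± 6.55 against 276.7 ± 4.52 (SD, n = 2; log2 difference -0.71, interval -1.0 to -0.41, adjusted p = 0.00184 in limma). GID1C had 112.1 ± 3.84 against 132.9 ± 12.3 (SD, n = 2), and that difference did not pass the test (log2 difference -0.21, interval -0.40 to -0.03, adjusted p = 0.0708 in limma). Its call rests on the setting, since the adjusted p was 0.0252 without replicate 1 of the unpollinated pistils and 0.0165 after quantile normalization, while its log2 difference shrank to -0.06 (adjusted p = 0.657) on centring on 4 reference genes and to -0.13 (adjusted p = 0.304) without replicate 2 of the unpollinated pistils. In this comparison 2 of the 3 receptors were lower, where 18.8% of all 22745 probe sets were called lower and 19.7% higher. The log2 difference of GID1A was lower than that of all but 1.3% of probe sets, that of GID1B all but 4.1% and that of GID1C all but 24.3%.

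At 0.5 HAP no receptor passed the test. GID1A stood at 93.5% of its unpollinated mean (log2 difference -0.09, 95% interval -0.30 to 0.11, adjusted p = 0.488 in limma), GID1B at 102% (0.03, interval -0.27 to 0.33, adjusted p = 0.878) and GID1C at 96.8% (-0.04, interval -0.23 to 0.15, adjusted p = 0.766). The intervals of the 3 receptors allow a fall or rise of at most about 0.33 on the log2 scale. Over all probe sets 15.5% were called higher and 14.7% lower at this time, in samples that also held pollen. The source of these calls was not tested.

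At 3.5 HAP GID1A was 1.29-fold lower than in unpollinated pistils, at 712.2 ± 69.9 (SD, n = 2; log2 difference -0.37, interval -0.57 to -0.16, adjusted p = 0.0119 in limma). GID1B stood at 297.7 ± 34.9 (log2 difference 0.10, adjusted p = 0.628) and GID1C at 153.3 ± 3.6 (0.19, adjusted p = 0.126), which did not pass. The fall of GID1A at this time is a weak call: the adjusted p was 0.122 without replicate 1 of 3.5 HAP, 0.0597 with only the 2 groups in the fit and 0.0528 when arrays were centred on 4 reference genes. GID1C passed as higher after quantile normalization (adjusted p = 0.0296) and after centring on the reference genes (adjusted p = 0.0466). In this comparison 17.0% of probe sets were called lower and 12.9% higher.

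From 3.5 to 8 HAP all 3 receptors were called lower, GID1C from just above the background level to below it. GID1A fell by 0.72 on the log2 scale, 1.65-fold (adjusted p = 0.000302 in limma), GID1B by 0.80, 1.74-fold (interval -1.10 to -0.50, adjusted p = 0.00147), and GID1C by 0.40 (interval -0.59 to -0.21, adjusted p = 0.00523). For each receptor both 8 HAP arrays lay below both 3.5 HAP arrays, a separation whose share over all probe sets was not counted. Of all probe sets 12.4% were called lower over this step and 18.9% higher. The 3 calls held in every alternative that gave a value and without any 1 array, although GID1C is absent from the setting that drops the dimmest 40% of probe sets.

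In the step before it no receptor passed the test. From 0.5 to 3.5 HAP the log2 differences were -0.27 for GID1A (adjusted p = 0.0732 in limma), 0.06 for GID1B (adjusted p = 0.812) and 0.23 for GID1C (adjusted p = 0.105), where 5.19% of probe sets were called higher and 9.00% lower. GID1A passed over this step without replicate 1 or replicate 2 of the unpollinated pistils (adjusted p = 0.0413 and 0.0411) and with only the 2 groups in the fit (adjusted p = 0.0301). From 0.5 to 8 HAP, GID1A fell by 0.998 on the log2 scale (adjusted p = 2.15e-05) and GID1B by 0.74 (adjusted p = 0.00269), while GID1C had -0.17 (adjusted p = 0.191); 10.7% of probe sets were called lower and 10.9% higher.

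**Figure D2:**
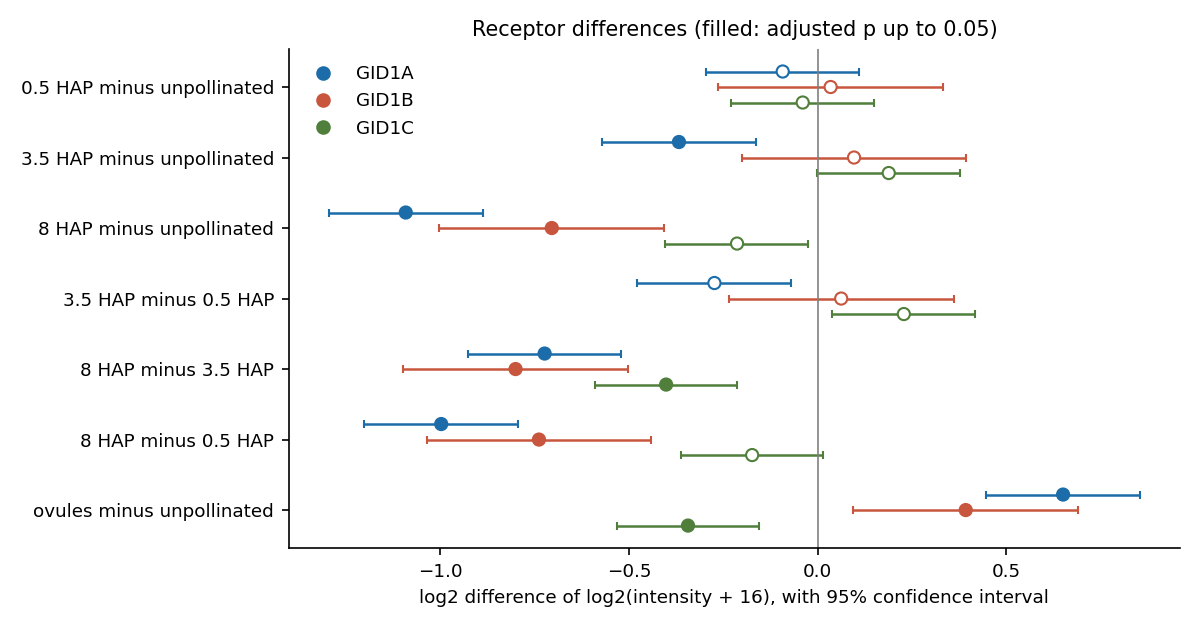
Fitted log2 difference (log2(intensity + 16) scale) of each receptor in the 7 comparisons between pistil groups or of ovules with unpollinated pistils, with 95% confidence intervals from limma as bars; filled points have an adjusted p of up to 0.05. The 8 HAP values of GID1A (-1.09) and GID1B (-0.71) lie apart from 0, and in ovules GID1A and GID1B lie above 0 and GID1C below it.

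Across the 4 pistil groups each receptor varied by limma's F test, with F = 57.01 for GID1A (adjusted p = 1.36e-05), 15.39 for GID1B (adjusted p = 0.00153) and 7.34 for GID1C (adjusted p = 0.0146). That test called 52.6% of all probe sets, so passing it does not set the receptors apart. For GID1C it was lost without replicate 2 of 3.5 HAP (adjusted p = 0.0696) or replicate 1 of 8 HAP (adjusted p = 0.0767).

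The order of the group means differed between the receptors. GID1A ran from ovules through unpollinated pistils, 0.5 HAP and 3.5 HAP down to 8 HAP. Of the neighbours tested, unpollinated and 0.5 HAP (adjusted p = 0.488) and 0.5 and 3.5 HAP (adjusted p = 0.0732) missed the threshold. GID1B was highest in ovules, followed by 3.5 HAP, 0.5 HAP and unpollinated pistils, where no difference among these 3 pistil groups passed the test, and lowest at 8 HAP. GID1C was highest at 3.5 HAP, followed by unpollinated pistils, 0.5 HAP, 8 HAP and ovules, and no neighbouring pair that was tested passed. Ovules were tested against unpollinated pistils alone.

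In ovules GID1A and GID1B were higher than in unpollinated pistils and GID1C was lower. GID1A had a mean of 1455 ± 13.8 in ovules (SD, n = 2), 1.57-fold higher than in whole unpollinated pistils (log2 difference 0.65, interval 0.45 to 0.85, adjusted p = 0.000117 in limma). GID1B had 373.1 ± 89.4, 1.31-fold higher (log2 difference 0.39, interval 0.09 to 0.69, adjusted p = 0.0309). GID1C had 101.1 ± 3.38, lower by the test (log2 difference -0.34, interval -0.53 to -0.15, adjusted p = 0.00566), but both ovule arrays lay under the background level, so the size of that difference has little meaning. Centring on the reference genes, of which 1 of 4 was itself called higher in ovules, moved GID1A to 0.37 (adjusted p = 0.00612) and GID1C to -0.62 (adjusted p = 0.000117). The call for GID1B rests on few arrays: its adjusted p was 0.311 without replicate 2 of the ovules, 0.0642 and 0.0868 without replicate 1 or 2 of the unpollinated pistils, 0.0951 with only the 2 groups in the fit and 0.437 after centring on the reference genes. The call for GID1C was lost after quantile normalization (log2 difference -0.19, adjusted p = 0.0526). In this comparison 29.6% of probe sets were called higher in ovules and 22.0% lower, beside 2 higher and 1 lower of the 3 receptors.

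Whether the receptors changed unequally was tested on the ratio of one receptor to another within each array. The ratio was taken as a difference on the log2 scale of the fits, where a constant is added to each intensity. Because of that constant, a scaling factor common to an array cancels only in part, least so in the ratios to the dim GID1C. Over the 5 groups, all 3 ratios differed by an exact permutation test over every partition of the 10 arrays into pairs (adjusted p = 0.00635 for each pair of receptors, adjusted over the 3 pairs). Over the 4 pistil groups alone, the ratio of GID1A to GID1B changed (exact permutation adjusted p = 0.0286, whose unadjusted p of 0.00952 is the smallest that 8 arrays in pairs allow), as did that of GID1A to GID1C (exact permutation adjusted p = 0.0429), while that of GID1B to GID1C did not pass (exact permutation adjusted p = 0.0571).

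Relative to its unpollinated mean, the log2 ratio of GID1A to GID1B stood at -0.13 at 0.5 HAP, -0.46 at 3.5 HAP, -0.39 at 8 HAP and 0.26 in ovules. The means of this ratio at 3.5 and 8 HAP were alike and lay below those of the earlier pistil groups, but no single pair of times was tested. The log2 ratio of GID1A to GID1C went from -0.05 through -0.56 to -0.88 over the same times and was 0.99 in ovules, and that of GID1B to GID1C stood at 0.07, -0.09, -0.49 and 0.74. A ratio shows unequal change, not which of its receptors moved. Both ratios to GID1C rest on a probe set at or under the background level, on all arrays of 8 HAP and ovules among others, so they set GID1A and GID1B against values close to a floor.

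**Figure D3:**
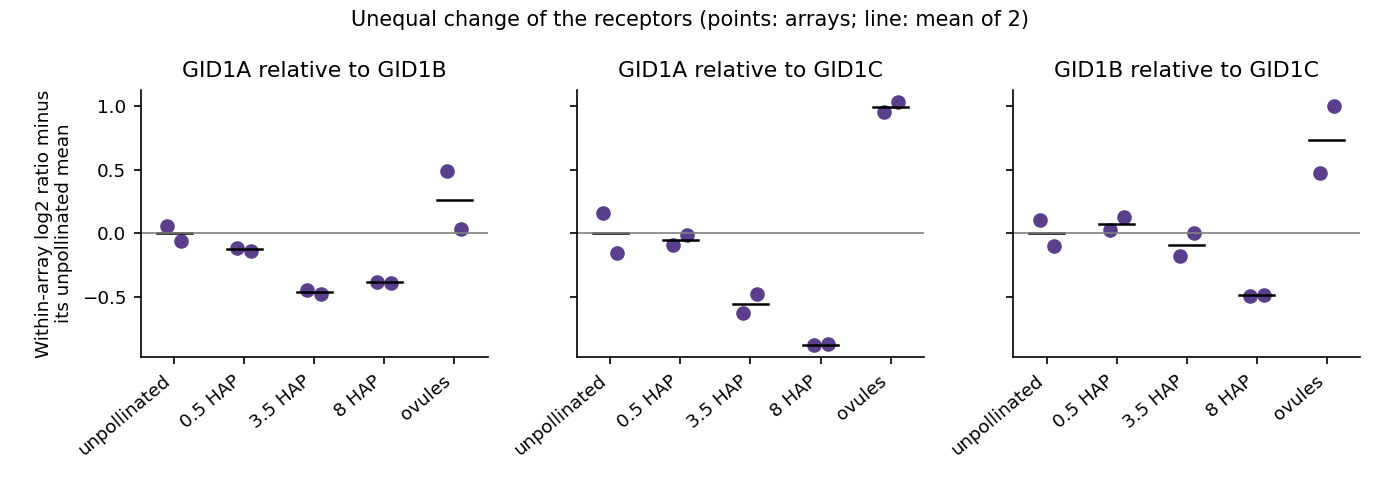
Log2 ratio of each pair of receptors within an array (difference on the log2 scale of the fits), given relative to the mean of the 2 unpollinated arrays. Points are arrays and short lines group means. The ratio of GID1A to GID1C reaches -0.88 at 8 HAP and 0.99 in ovules.

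The proteins that act with or on the receptors were measured in part: of 15 genes listed for gibberellin signalling, 4 had a probe set naming them alone, and no DELLA gene was among these. At 8 HAP 3 of the 4 were lower than in unpollinated pistils and 0 higher, with a median log2 difference of -0.41 against -0.01 over all probe sets, of which 18.8% were called lower and 19.7% higher. SLY1, the F-box protein that receives DELLA proteins from the receptors, had unpollinated intensities of 518.0 and 451.2, against 344.7 and 275.7 at 8 HAP (log2 difference -0.62, adjusted p = 0.00362 in limma). Its 2 arrays at 8 HAP lay below all other arrays, but the adjusted p was 0.0501 without replicate 2 of 8 HAP. SLY2, a close relative of SLY1 that can stand in for it, went from 243.8 ± 19.9 to 179.8 (n = 2; log2 difference -0.41, adjusted p = 0.00319). SEC, an enzyme that adds N-acetylglucosamine to DELLA proteins, went from 940.5 to 705 (log2 difference -0.41, adjusted p = 0.00372), a call lost on centring on the reference genes (adjusted p = 0.0615). SPY, which adds fucose to DELLA proteins, did not pass (log2 difference -0.03, adjusted p = 0.87).

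In ovules the order of these genes differed. SPY was 1.71-fold higher than in unpollinated pistils, with 875.1 and 1057 on the ovule arrays and 649.6 and 477.0 on the unpollinated ones (log2 difference 0.77, adjusted p = 0.000566 in limma). SLY1, SLY2 and SEC gave no call there, with log2 differences of 0.32, 0.00 and 0.19 (adjusted p = 0.0699, 0.969 and 0.0991). Of the 4, therefore, 1 was called higher in ovules, where 29.6% of all probe sets were. That count depends on single arrays, since SLY1 passed as higher without replicate 1 of the ovules (adjusted p = 0.0122) or of the unpollinated pistils (adjusted p = 0.0478) and SEC without replicate 2 of the ovules (adjusted p = 0.038). It also depends on the scaling: SLY2 was called lower on centring on the reference genes (log2 difference -0.28, adjusted p = 0.02), where SEC turned to -0.09 (adjusted p = 0.44).

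Genes under the control of DELLA proteins in Arabidopsis seedlings were represented by 4 of 11 listed. XERICO, a RING-type E3 ligase gene tied to abscisic acid accumulation and raised by DELLA proteins, had intensities of 1399 and 1546 (unpollinated pistils), 1184 and 1276 (0.5 HAP), 1142 and 1227 (3.5 HAP), 631.8 and 621.4 (8 HAP) and 2111 and 2162 (ovules). Its 8 HAP arrays were the lowest and its ovule arrays the highest, as for GID1A. It was 2.31-fold lower at 8 HAP (log2 difference -1.21, adjusted p = 1.01e-06 in limma) and 1.45-fold higher in ovules (0.53, adjusted p = 0.00026). Its earlier falls, -0.26 at 0.5 HAP (adjusted p = 0.0405) and -0.31 at 3.5 HAP (adjusted p = 0.0179), were weak calls. Both were lost on centring on the reference genes (adjusted p = 0.275 and 0.0793) and with only the 2 groups in the fit (adjusted p = 0.106 and 0.0709). Without replicate 2 of the unpollinated pistils they shrank to -0.18 and -0.24.

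The other 3 moved in other ways. AT2G31730 was 1.64-fold lower at 3.5 HAP (log2 difference -0.71, adjusted p = 0.000785 in limma) and had -0.43 at 8 HAP (adjusted p = 0.0114, and 0.0582 or 0.06 without replicate 1 or 2 of 8 HAP). IQD22, a calmodulin-binding protein of the IQD family, was 1.46-fold higher at 0.5 HAP (adjusted p = 0.00423), 1.74-fold higher at 3.5 HAP (adjusted p = 0.000393) and 4.08-fold higher in ovules (adjusted p = 6.38e-08), and gave no call at 8 HAP (0.22, adjusted p = 0.155; 0.0299 without replicate 2 of the unpollinated pistils). AT5G50915 gave no call at 8 HAP (0.55, adjusted p = 0.0536; 0.000353 without replicate 1 of the unpollinated pistils) and was lower in ovules (adjusted p = 2.86e-05), where both of its arrays, 110.1 and 116.6, lay under the background level. At 8 HAP 0 of the 4 were higher and 2 lower (median log2 difference -0.10 against -0.01 over all probe sets, of which 18.8% were called lower and 19.7% higher). After centring on the reference genes 2 were higher and 1 lower: AT5G50915 (0.71, adjusted p = 0.013) and IQD22 (0.38, adjusted p = 0.0271) passed as higher, and AT2G31730 no longer passed (-0.27, adjusted p = 0.0692).

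GASA genes encode small cysteine-rich peptides, several of which respond to gibberellin, and 3 of 10 listed were measured, under locus names without a symbol. AT2G14900, with 4869 ± 58.4 in unpollinated pistils, was 1.55-fold lower at 0.5 HAP (3149 ± 259, SD, n = 2; adjusted p = 0.000297 in limma) and 1.34-fold lower at 3.5 HAP (adjusted p = 0.00367), and at 8 HAP no longer differed by the test (log2 difference -0.08, adjusted p = 0.53). AT5G59845 was 1.5-fold lower at 0.5 HAP (adjusted p = 0.000858) and lower at 8 HAP (log2 difference -1.01, adjusted p = 1e-05), where both of its arrays lay under the background level. AT1G22690 was called higher at 8 HAP (adjusted p = 5.72e-05), with 164.5 and 168.9 against unpollinated values of 77.44 and 91.5, which lay under the background level. So 1 was called higher, 1 lower and 1 neither at 8 HAP, where 19.7% of all probe sets were called higher and 18.8% lower.

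Of 14 genes listed for gibberellin synthesis 0 were measured by a probe set naming them alone. Of 14 listed for inactivation and transport 3 were measured. AT1G68570, which encodes NPF3.1, a membrane carrier of gibberellin and abscisic acid, had 1723 and 1391 (unpollinated pistils), 1100 and 1080 (0.5 HAP), 1970 and 1777 (3.5 HAP), 806.5 and 864.7 (8 HAP) and 68.14 and 75.96 (ovules). It went down, back up and down again: 0.5 HAP was lower than unpollinated pistils (log2 difference -0.50, adjusted p = 0.00575 in limma), 3.5 HAP was not (0.27, adjusted p = 0.0869), and 8 HAP was 1.84-fold lower (-0.88, adjusted p = 9.82e-05). In ovules it was under the background level on both arrays. SWEET13 and SWEET14 are sugar carriers that also move gibberellin in Arabidopsis. SWEET13 lay under the background level on all arrays, from 43.41 to 122.6, and was called higher at 0.5, 3.5 and 8 HAP (adjusted p = 0.0133, 8.4e-05 and 0.00624); the first call was lost without replicate 1 or 2 of 0.5 HAP or replicate 1 of the unpollinated pistils (adjusted p = 0.0532, 0.0872 and 0.0714) and the last without replicate 2 of 8 HAP (adjusted p = 0.0769). SWEET14 lay near the background level and gave no call at 8 HAP (log2 difference 0.11, adjusted p = 0.443).

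**Figure D4:**
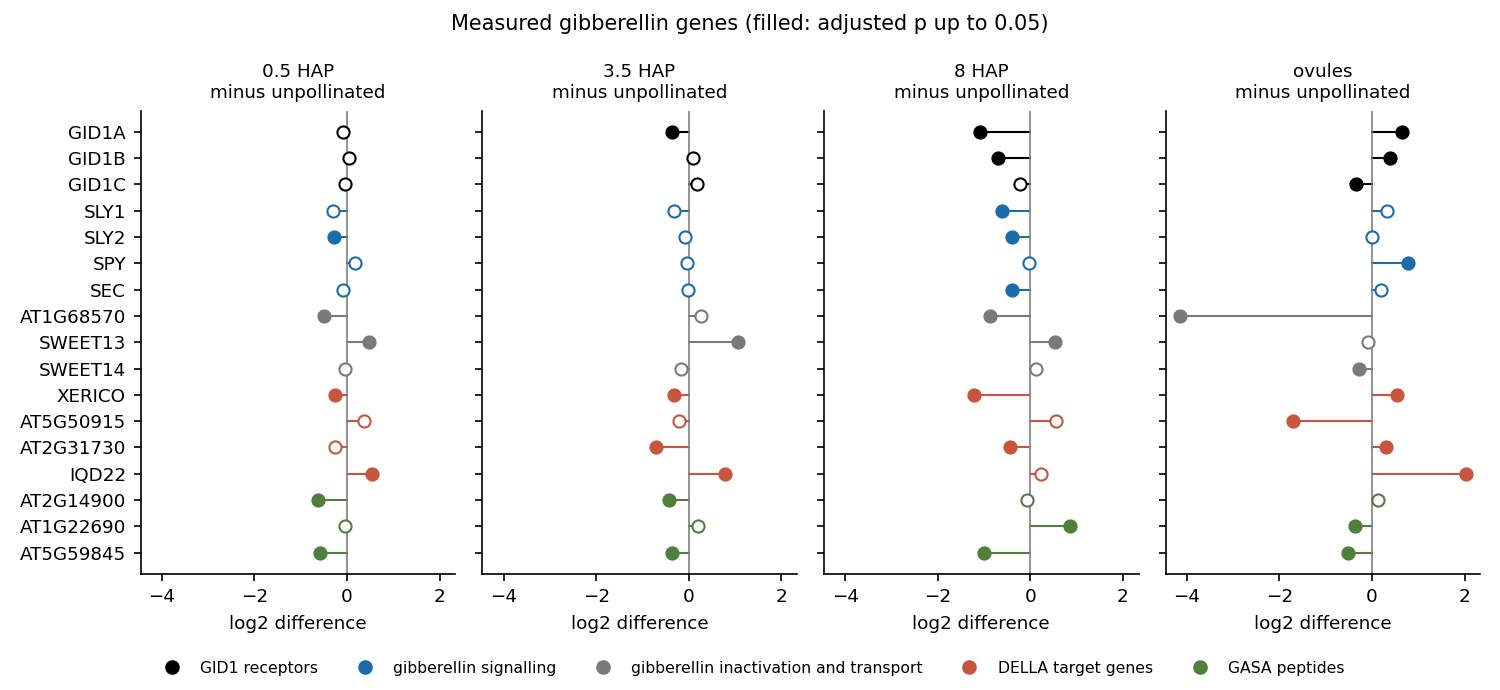
Fitted log2 difference from unpollinated pistils (log2(intensity + 16) scale) of the 3 receptors and the measured genes of the gibberellin lists at each time and in ovules, coloured by list; filled points have an adjusted p of up to 0.05. At 8 HAP XERICO (-1.21), GID1A (-1.09), AT5G59845 (-1.01), AT1G68570 (-0.88), GID1B (-0.71) and SLY1 (-0.62) lie farthest to the left, and AT1G68570 has the largest difference in ovules (-4.15).

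The receptors belong to a family of plant carboxylesterases, most of which are enzymes, whereas GID1 proteins bind the hormone without cleaving it. Of 8 listed relatives 4 were measured, and at 8 HAP 2 were called higher and 0 lower, with a median log2 difference of 0.25 against -0.01 over all probe sets, of which 19.7% were called higher and 18.8% lower. CXE18 had 463.8 and 351.0 (unpollinated pistils), 709.0 and 680.9 (8 HAP), and 1257 and 1584 (ovules); it was 1.69-fold higher at 8 HAP (adjusted p = 0.00111 in limma) and 3.40-fold higher in ovules (adjusted p = 7.48e-07). CXE20 was also called higher (log2 difference 0.38, adjusted p = 0.00484, and 0.0532 without replicate 2 of 8 HAP) but lay under the background level on all arrays. CXE16 and AT1G19190 gave no call at 8 HAP, though CXE16 passed as higher on centring on the reference genes (0.27, adjusted p = 0.0273). Of 30 receptor genes listed for other hormones only BRL1, a brassinosteroid receptor, was measured, and at 8 HAP it had a log2 difference of -0.01 (adjusted p = 0.921). The fall at 8 HAP was not tested as a difference between the receptors and these genes.

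The genes whose pattern was most like that of a receptor were ranked by Pearson's r of log2 intensity over the 10 arrays, as a description, among probe sets naming 1 gene with a similar or wider range. The arrays are replicates of only 5 groups, which makes high values easy to reach. For GID1A, out of 2910 candidates, these were AT2G29340 (r = 0.992), AT3G53990 (0.982), XERICO (0.981), AT4G36050 (0.97) and AT1G26795 (0.969). XERICO, already among the DELLA-controlled genes above, was thus among the closest, at 83.5%, 80.5%, 42.6% and 145% of its unpollinated mean at 0.5, 3.5 and 8 HAP and in ovules, where GID1A stood at 93.5%, 77.2%, 45.9% and 158%.

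For GID1B, out of 5653 candidates, the closest were AT3G45900 (r = 0.973), AT5G06370 (0.958), OCT1 (0.956), an organic cation and carnitine transporter, AT2G32090 (0.933) and AT1G32700 (0.919). GID1A ranked 15th among them (r = 0.896), while at the same r GID1B ranked much lower among the 2910 candidates for GID1A. For GID1C, out of 8731 candidates, they were AT1G02470 (r = 0.969), AT1G29195 (0.962), AT1G18440 (0.954), AT1G35340 (0.953) and AT5G14120 (0.952), and its r was -0.247 with GID1A and 0.035 with GID1B. Most of the values of GID1C behind these figures lay under the background level.

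**Figure D5:**
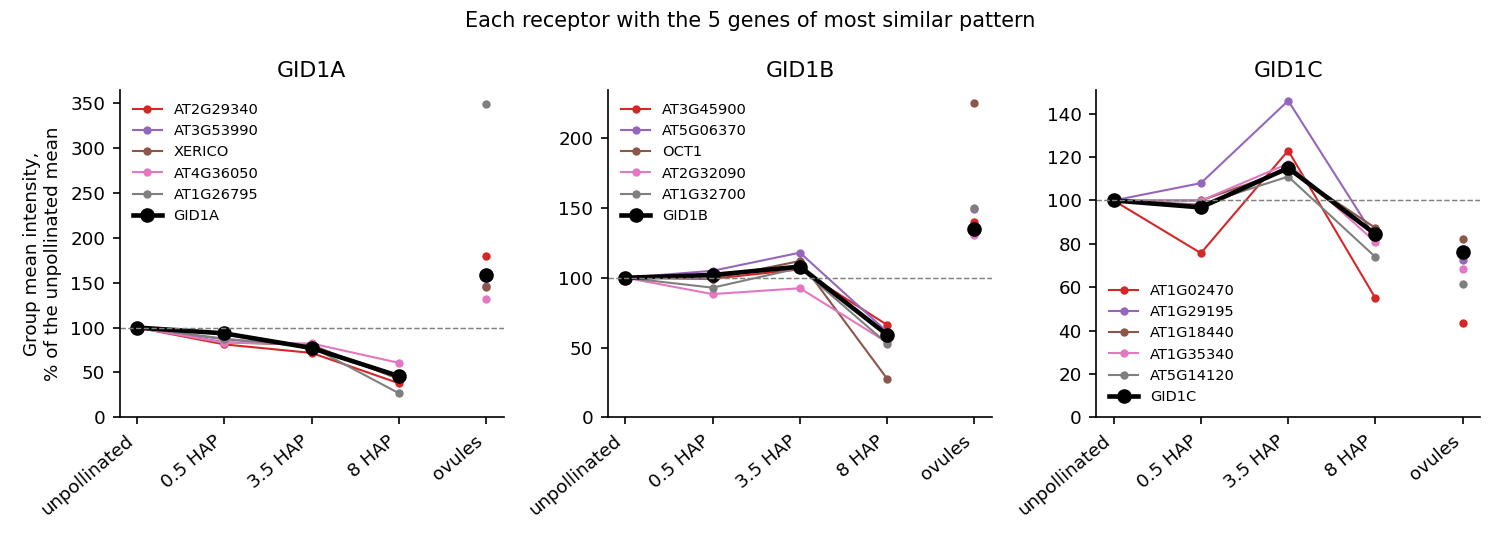
Group mean intensity, as a percent of the unpollinated mean, of each receptor (black) and the 5 genes of highest Pearson's r with it over the 10 arrays; lines join the pistil groups, and ovules stand apart. Genes like GID1A and GID1B are lowest at 8 HAP among the pistil groups, and genes like GID1C peak at 3.5 HAP.

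Other measures also changed over the time course, not all of them at the times when the receptors fell. The summed intensity of 9 of 26 listed pollen and pollen tube markers was 1364 to 1550 in unpollinated pistils. It was 7855 to 8115 at 0.5 HAP, 12380 to 13180 at 3.5 HAP and 14200 to 14330 by 8 HAP. In ovules it was 1068 to 1281. Against unpollinated pistils 9 of 9 were called higher at each time after pollination. From 0.5 to 3.5 HAP 6 of 9 were called higher, beside 5.19% of all probe sets. From 3.5 to 8 HAP 5 of 9 were, beside 18.9%. Some of the 9 lay under the background level at 0.5 HAP, where not all calls held in every alternative. The sum of the 3 measured green tissue markers of 10 listed, among them RCA, the activase of Rubisco, went from 19970 to 20340 in unpollinated pistils to 13890 to 14210 at 8 HAP (3 of 3 fell) and 4900 to 6059 in ovules. That of 5 of 10 listed stigma, style and transmitting tract markers was 3984 to 4411 in unpollinated pistils. It was 7930 to 7964 at 0.5 HAP, 7165 to 8231 at 3.5 HAP and 3523 to 3765 at 8 HAP. At 0.5 HAP 3 were called higher than unpollinated and 1 lower, beside 15.5% and 14.7% of all probe sets. Much of that rise of the sum lay in ARPN, with 1446 and 1049 (unpollinated pistils) and 5003 and 4950 (0.5 HAP). SPT stood at 55.1% of its unpollinated mean at 0.5 HAP. At 8 HAP 2 were higher and 3 lower than unpollinated. Of all probe sets 15.5%, 12.9% and 19.7% were called higher at 0.5, 3.5 and 8 HAP, and 18.8% were called lower at 8 HAP. The sums of these markers rest on unequal members, and their part in the receptors' changes was not tested.

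The 5 measured ovule markers of 14 listed summed to 6150 to 6662 in ovules and 1430 to 1488 in unpollinated pistils, and 5 of 5 were higher in ovules, among them INO, a gene of the outer integument, at 322% of its unpollinated mean. Of all probe sets 29.6% were called higher in ovules. At 8 HAP the sum of the ovule markers was 2163 to 2230. Its rise lay in BAN, with 364.4 and 274.8 (unpollinated pistils) and 1507 and 1413 (8 HAP). INO stood at 77.2% of its unpollinated mean, a call as lower that was lost on centring on the reference genes (adjusted p = 0.118). Of the ovule markers 2 were higher and 3 lower at 8 HAP than in unpollinated pistils, beside 19.7% and 18.8% of all probe sets. Of 15 listed clock genes only 1 was measured, GI, whose transcript rises and falls over the day. GI had 1437 and 1304 (unpollinated pistils), 1254 and 1237 (0.5 HAP), 1091 and 1102 (3.5 HAP) and 582.3 and 602.1 (8 HAP). In ovules it had 1344 and 1368. It was 2.28-fold lower at 8 HAP (log2 difference -1.19, adjusted p = 7.36e-07 in limma), beside the 2.13-fold of GID1A, and did not differ by the test in ovules (-0.01, adjusted p = 0.904; lower, -0.29, adjusted p = 0.0147 on centring on the reference genes). The labels give hours after pollination and no clock time of collection, and the part of the time of day in the receptors' fall was not tested.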

How the data were processed

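The 10 one-colour Affymetrix arrays were hybridised with cRNA, amplified from total RNA in 2 rounds and labelled with biotin, per the labels' protocols. A table deposited by the authors gives a linear intensity for 22810 probe sets. MAS5 appears in the submitters' processing notes without a version or a role, and the scaling between arrays is not given in the sources used here. Of the probe sets 64 controls and 1 without values were left out of tests, leaving 22745. Of these 13512 named 1 gene in the platform annotation, 503 several and 8730 none, so gene lists were covered in part; 13435 of the first kind matched a RefSeq gene table (TAIR10.1).

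Intensity was taken as log2(value + 16) without a filter and fitted over all 5 groups with limma 3.58.1 in R 4.3.3 (lmFit, contrasts.fit, eBayes with trend; 5 residual and 6.106 prior degrees of freedom), two-sided. P-values were adjusted by Benjamini-Hochberg over all tested probe sets of a comparison, with a threshold of 0.05. Adjusted p-values given in the text without a tool are limma's. Ratios of 2 receptors were tested with exact permutation tests in Python 3.11.15. The fit was tested on simulated data before use. The number of arrays, 2 a group, limits precision, and replicates are separate pools of pistils whose spread may be partly technical.

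The receptors and gene lists were chosen with earlier results of these data known. Named genes were the receptors, all measured members of the gibberellin lists, at most 4 of each other list with the smallest adjusted p at 8 HAP, and the 5 genes most like each receptor (highest group mean above background, range of group means at least 0.5 times the receptor's). Alternatives were quantile normalization, centring on 4 reference genes, a pseudocount of 1 or 64, a filter on the dimmest 40% of probe sets, other groups in the fit, no trend, robust eBayes, a replicate block, and leaving out each array. Receptor sequences were not analysed here.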

Additional observations from a re-analysis of the deposited data

How the results depend on the processing

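The falls of GID1A and GID1B at 8 HAP against unpollinated pistils kept their direction and call in every alternative run, from -1.12 to -0.93 and from -0.78 to -0.55 on the log2 scale, and without any 1 array (-1.17 to -1.02 and -0.74 to -0.67). So did the 3 falls from 3.5 to 8 HAP. The tests of unequal change kept their outcome, passed or not, in their 18 alternatives. These were limited to the other pseudocounts and quantile normalization, with no array left out. Quantile normalization moved GID1C to 0.24 at 3.5 HAP (adjusted p = 0.0296 in limma, as for all p here), -0.26 at 8 HAP (0.0165), 0.30 from 0.5 to 3.5 HAP (0.0231) and -0.19 in ovules (0.0526). The 4 reference genes were not all steady: against unpollinated pistils 1 was called lower at 3.5 HAP, 1 lower at 8 HAP and 1 higher in ovules. Centring on 4 reference genes moved the median log2 difference of all probe sets from -0.02 to 0.10 at 0.5 HAP, -0.01 to 0.15 at 8 HAP, 0.05 to 0.12 from 3.5 to 8 HAP and 0.04 to -0.24 in ovules. It turned GID1A to 0.031 and GID1C to 0.084 at 0.5 HAP (adjusted p = 0.841 and 0.531), gave GID1A -0.28 and GID1C 0.28 at 3.5 HAP (0.0528 and 0.0466) GID1C -0.06 at 8 HAP (0.657), and GID1A 0.37, GID1B 0.11 and GID1C -0.62 in ovules (0.00612, 0.437 and 0.000117). It also moved the share of called probe sets that were higher from 51.4% to 76.2% at 0.5 HAP, from 43.1% to 62.5% at 3.5 HAP, from 51.2% to 77.0% at 8 HAP, from 60.4% to 75.5% from 3.5 to 8 HAP, and from 57.4% to 22.1% in ovules. From 0.5 to 3.5 HAP that share was 36.6% as deposited and 48.2% after quantile normalization. With only the 2 groups in the fit, GID1A had -0.37 at 3.5 HAP (adjusted p = 0.0597) and -0.27 from 0.5 to 3.5 HAP (0.0301), and GID1B 0.39 in ovules (0.0951). That fit called 5895 probe sets from 0.5 to 3.5 HAP, against 3228 with all groups, and 7706 against 4916 from 0.5 to 8 HAP. Without 1 array GID1A ranged from -0.47 to -0.27 at 3.5 HAP and from -0.37 to -0.18 from 0.5 to 3.5 HAP. GID1B ranged from -0.018 (without replicate 2 of 3.5 HAP) to 0.21 at 3.5 HAP, from -0.052 (without the same array) to 0.18 from 0.5 to 3.5 HAP, and from 0.16 to 0.63 in ovules. GID1C ranged from -0.125 to 0.044 (without replicate 2 of the unpollinated pistils) at 0.5 HAP and from -0.30 to -0.13 at 8 HAP, and its F over the pistil groups from 4.23 to 10.3. Without 1 array the probe sets called ranged from 3723 to 7318 at 0.5 HAP, 3981 to 8157 at 3.5 HAP, 5610 to 9111 at 8 HAP, 982 to 4469 from 0.5 to 3.5 HAP, 3563 to 8571 from 3.5 to 8 HAP, and 2406 to 6040 from 0.5 to 8 HAP. The counts that moved by over 1.5 times were those without an array of the groups compared other than the unpollinated pistils. The causes of these moves were not tested. Deviations of same-numbered arrays correlated from -0.32, between unpollinated pistils and ovules, to 0.11. These values showed no positive pairing by replicate number, and the source of the -0.32 was not tested. With a replicate block no receptor's call changed (8 HAP against unpollinated, adjusted p = 2.56e-05 for GID1A, 0.00158 for GID1B and 0.0875 for GID1C). GID1C lies at the background level, which limits its values, and it gave none with the dimmest 40% of probe sets left out. The search for promoter motifs could not be run here.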
